A study of Mus musculus with 4 samples.

Results

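The immunoglobulin kappa variable (V) segments are the gene segments from which the antigen-binding part of the kappa light chain is built. They were taken here as every gene whose symbol begins with Igkv, which gave 160 of the 55421 gene identifiers counted in the 4 libraries. Of these, 100 are annotated as functional V segments and 60 as pseudogenes, and their symbols place them in 20 V families. All lie on chromosome 6 of the mouse genome (build GRCm38), at chr6:67555497-70704177, upstream of the joining segments that begin with Igkj1. The libraries were made from RNA labelled as islet macrophages, with 2 libraries from wild-type C57BL/6 mice on a high fat feed (HFD) and 2 from wild-type C57BL/6 mice on normal chow (NCD). Genotype and strain were the same in both diets, and no transgene, drug or other agent is named. The sources used here do not give age, sex, time on the diet or the number of mice in a library. Whether the 2 libraries of a diet are from different mice is not stated either, and each p-value therefore measures only how far these libraries spread, possibly for technical reasons.

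A kappa light chain gene is assembled in developing B cells, when the RAG recombinase joins a V segment to a joining (J) segment upstream of the constant gene Igkc. A B cell and its descendants express the V segment that was joined, so counts over V segments in bulk RNA read out which rearranged light chains were present, weighted by how much light chain RNA each cell made. Plasma cells, the antibody-secreting descendants of B cells, carry far more of this RNA than resting B cells. The family number in a symbol groups segments of similar sequence, and the number after the dash gives the position, with low numbers near the J segments. In bulk samples, more cells of a type and more RNA per cell cannot be told apart.

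The libraries held 61855337 and 56740720 counts (HFD) and 64490097 and 62171973 counts (NCD). The label was set against marker genes. Macrophage markers summed to 475 and 476 CPM (counts scaled to libraries of equal depth) in the HFD libraries and 550 and 525 CPM in the NCD libraries, and beta cell markers to 13349 and 13950 CPM in HFD and 17092 and 17560 CPM in NCD, so RNA of endocrine cells was present beside that of the labelled cell type. B cell markers summed to 232 and 233 CPM in HFD and 38.1 and 37.8 CPM in NCD, with 10 of 11 higher in HFD (edgeR quasi-likelihood test, adjusted p under 0.05), where 17.9% of all genes tested were higher and 14.5% lower. Of the 8 macrophage markers 2 were higher and 4 lower. T cell markers (6 of 6 higher, 60.9 and 50.4 CPM in HFD, 12.5 and 11.4 CPM in NCD) and acinar cell markers (4 of 4 higher, 1729 and 1954 CPM in HFD, 255 and 267 CPM in NCD) moved the same way. The part of these cell types in the results on V segments was not tested.

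V exon sequences of the pairs on which the results turn are shown here, because closely related segments differed between the diets in opposite or unequal ways. Each is the V exon on its coding strand, 5′ to 3′ and without the first 10 bases in the Vκ3 segments, read from the GRCm38 transcript annotation, and capitals mark the bases that differ from the named relative. The first 4 belong to Vκ3, the family next to the J segments, and lie on the + strand. They are Igkv3-2 (chr6:70698768-70699067, against Igkv3-10), Igkv3-10 (chr6:70572931-70573230, against Igkv3-2), Igkv3-5 (chr6:70663596-70663895, against Igkv3-10) and Igkv3-1 (chr6:70703878-70704177, against Igkv3-2).
Igkv3-2: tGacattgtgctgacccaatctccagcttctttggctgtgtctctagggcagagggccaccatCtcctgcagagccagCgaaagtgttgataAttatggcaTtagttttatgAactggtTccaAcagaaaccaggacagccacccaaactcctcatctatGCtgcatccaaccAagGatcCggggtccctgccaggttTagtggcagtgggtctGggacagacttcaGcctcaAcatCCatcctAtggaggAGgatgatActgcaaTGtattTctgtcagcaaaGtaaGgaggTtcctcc
Igkv3-10: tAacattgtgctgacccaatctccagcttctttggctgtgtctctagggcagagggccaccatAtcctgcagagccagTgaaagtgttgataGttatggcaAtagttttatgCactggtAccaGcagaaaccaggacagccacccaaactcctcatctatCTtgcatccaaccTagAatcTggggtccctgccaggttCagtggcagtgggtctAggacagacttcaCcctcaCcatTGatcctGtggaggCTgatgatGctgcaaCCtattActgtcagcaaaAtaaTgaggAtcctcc
Igkv3-5: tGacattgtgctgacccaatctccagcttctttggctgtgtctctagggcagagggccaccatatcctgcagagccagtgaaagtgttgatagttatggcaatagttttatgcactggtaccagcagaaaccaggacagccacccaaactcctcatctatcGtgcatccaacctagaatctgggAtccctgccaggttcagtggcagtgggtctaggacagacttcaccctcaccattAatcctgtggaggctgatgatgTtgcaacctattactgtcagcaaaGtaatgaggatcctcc
Igkv3-1: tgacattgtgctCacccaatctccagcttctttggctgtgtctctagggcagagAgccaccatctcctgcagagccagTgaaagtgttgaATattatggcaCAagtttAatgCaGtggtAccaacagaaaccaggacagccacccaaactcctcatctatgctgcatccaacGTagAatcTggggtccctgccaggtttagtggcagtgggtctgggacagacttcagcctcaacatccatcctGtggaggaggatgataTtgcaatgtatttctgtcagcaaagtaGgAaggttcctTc
The next pairs are Igkv14-111 (chr6:68256572-68256869, + strand) with Igkv14-126 (chr6:67896345-67896642, + strand), and Igkv10-94 (chr6:68704508-68704805, − strand) with Igkv10-95 (chr6:68680551-68680848, + strand).
Igkv14-111: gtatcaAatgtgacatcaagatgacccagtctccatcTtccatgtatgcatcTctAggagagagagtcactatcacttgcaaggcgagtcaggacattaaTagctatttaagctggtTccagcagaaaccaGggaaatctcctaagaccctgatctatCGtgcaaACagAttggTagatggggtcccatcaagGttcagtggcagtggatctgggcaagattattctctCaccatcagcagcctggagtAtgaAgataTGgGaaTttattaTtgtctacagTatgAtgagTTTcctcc
Igkv14-126: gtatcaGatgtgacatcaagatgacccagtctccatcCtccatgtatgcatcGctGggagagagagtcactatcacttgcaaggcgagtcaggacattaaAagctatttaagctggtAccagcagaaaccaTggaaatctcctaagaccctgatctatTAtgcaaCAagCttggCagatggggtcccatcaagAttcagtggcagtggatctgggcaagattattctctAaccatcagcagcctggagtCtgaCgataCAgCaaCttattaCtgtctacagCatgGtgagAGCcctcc
Igkv10-94: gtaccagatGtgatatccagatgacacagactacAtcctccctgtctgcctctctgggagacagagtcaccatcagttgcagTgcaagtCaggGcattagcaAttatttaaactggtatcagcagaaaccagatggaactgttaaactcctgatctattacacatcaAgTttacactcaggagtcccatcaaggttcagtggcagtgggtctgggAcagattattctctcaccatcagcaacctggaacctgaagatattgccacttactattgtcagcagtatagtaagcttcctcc
Igkv10-95: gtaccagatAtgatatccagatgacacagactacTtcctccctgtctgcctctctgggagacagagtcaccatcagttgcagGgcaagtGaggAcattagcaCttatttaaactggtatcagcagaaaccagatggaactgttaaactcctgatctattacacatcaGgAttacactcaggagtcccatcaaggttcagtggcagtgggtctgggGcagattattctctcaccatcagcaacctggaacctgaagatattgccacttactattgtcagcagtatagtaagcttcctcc
The last pair is Igkv17-127 (chr6:67861362-67861659, + strand) with Igkv17-121 (chr6:68037021-68037318, + strand).
Igkv17-127: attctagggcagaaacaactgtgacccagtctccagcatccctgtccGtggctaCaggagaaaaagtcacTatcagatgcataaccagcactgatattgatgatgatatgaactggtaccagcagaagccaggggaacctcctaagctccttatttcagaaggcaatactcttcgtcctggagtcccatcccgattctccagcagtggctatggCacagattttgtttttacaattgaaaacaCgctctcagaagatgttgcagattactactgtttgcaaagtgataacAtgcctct
Igkv17-121: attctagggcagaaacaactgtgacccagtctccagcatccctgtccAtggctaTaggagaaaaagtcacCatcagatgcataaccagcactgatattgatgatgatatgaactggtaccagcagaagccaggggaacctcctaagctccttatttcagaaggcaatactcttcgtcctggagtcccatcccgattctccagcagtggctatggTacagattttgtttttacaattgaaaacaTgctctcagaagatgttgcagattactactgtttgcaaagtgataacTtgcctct

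Igkv3-2 and Igkv3-10 differ at 29 of 310 aligned bases (90.7% identity), Igkv3-1 and Igkv3-2 at 22 (20 of them in the stretch shown), and Igkv3-10 and Igkv3-5 at only 6, with a longest identical run of 159 bases. Igkv14-111 and Igkv14-126 differ at 27 bases, Igkv10-94 and Igkv10-95 at 9, and Igkv17-127 and Igkv17-121 at 6. Of the differences between Igkv3-2 and Igkv3-10, 3 fall in the 23 bases after the conserved cysteine codon, which form the germline start of the third complementarity-determining region, the loop that spans the V-J joint. Igkv10-94 and Igkv10-95 have none there. Among the 100 functional V exons (293 to 322 bases, median 303), identity to the closest other segment had a median of 94.2% and 93 had it within their own family. All 100-base windows were unique to their segment in 73 of the 100 exons, and all 50-base windows in 24. The sources used here give neither the read length nor the handling of multi-mapping reads, so counts of close relatives may share reads. Unique 100-base windows made up 100% of Igkv3-2 and Igkv3-1 and of both Vκ10 segments, 71.6% of Igkv3-10 and Igkv3-5, and 77.9% of Igkv17-127.

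Kappa V segments took a larger part of the RNA in the HFD libraries. The 160 segments together had 73151 and 65491 counts in HFD, against 12463 and 11704 counts in NCD. Scaled by the plain library totals (plain CPM) this was 1183 and 1154 in HFD and 193 and 188 in NCD, with means of 1168 ± 20.1 and 191 ± 3.54 (SD, n = 2 each), a 6.13-fold difference. Igkc, the kappa constant gene, had 59510 and 53868 counts in HFD and 9521 and 9483 counts in NCD (956 ± 6.92 and 150 ± 3.45 CPM, SD, n = 2 each), and rose by 2.67 on the log2 scale (SE 0.0392, edgeR adjusted p = 1.36e-05). V counts for each Igkc count were 1.23 and 1.22 in HFD and 1.31 and 1.23 in NCD, so V and constant counts moved together. V counts divided by the summed counts of the 11 B cell markers gave 5.11 and 4.96 in HFD and 5.07 and 4.98 in NCD, with overlapping ranges.

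Many more segments were used in the HFD libraries. At least 1 count was found for 91 and 88 segments in HFD, against 30 and 35 segments in NCD (89.5 ± 2.12 and 32.5 ± 3.54, SD, n = 2 each). Scaled down to the 11704 segment counts of the smallest library, 84.8 and 83.8 segments were expected in HFD, against 30.0 and 35.0 in NCD. This scaling takes counts as independent draws. At least 12 counts, the floor used here for a segment that is present, were reached by 77 and 77 segments in HFD and 20 and 21 segments in NCD. With 2 libraries a diet, the exact permutation test cannot give a two-sided p below 0.333. The 37 segments with at least 12 counts in both HFD libraries and 0 counts in both NCD libraries held 16.9% and 16.8% of the HFD segment counts. In the other direction Igkv3-1 alone was at the floor in both NCD libraries and below it in both HFD libraries.

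Evenness did not separate the diets, while other measures of diversity did. Pielou's evenness, which is 1 when all used segments have equal counts, was 0.586 and 0.596 in HFD and 0.603 and 0.576 in NCD. The means were 0.591 ± 0.00694 in HFD and 0.590 ± 0.0194 in NCD (SD, n = 2 each), and the values overlapped (exact permutation p = 1, two-sided, n = 2 each). The effective number of segments from Shannon entropy was 14.1 and 14.4 in HFD and 7.78 and 7.75 in NCD. By Simpson's index, which weights the most counted segments more, it was 4.67 and 4.84 in HFD and 5.61 and 5.60 in NCD, the opposite order. The leading segment, Igkv3-2 in all 4 libraries, had 44.9% and 44.0% of segment counts in HFD and 27.4% and 26.9% in NCD. Without it, evenness was 0.789 and 0.793 in HFD and 0.599 and 0.569 in NCD. It took 24 and 24 segments to reach 90% of counts in HFD, against 6 and 6 in NCD.

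**Figure D1:**
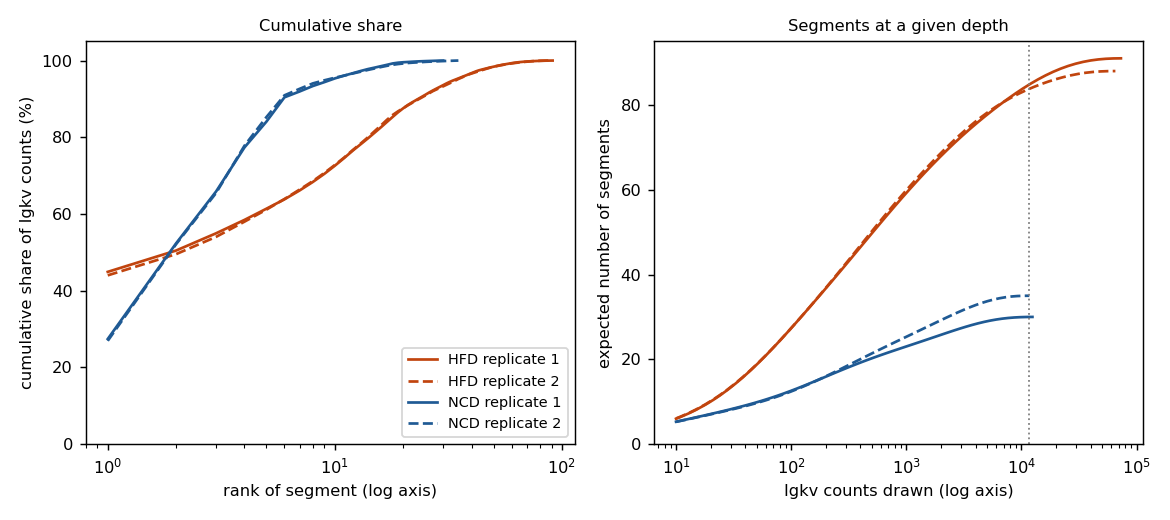
The left panel plots the cumulative share of Igkv counts (percent) against segment rank (log axis), and the right panel the expected number of segments against the Igkv counts drawn (log axis), with a line for each library and a dotted line at 11704 counts. The HFD lines start at 44.9% and 44.0% and need 24 segments to reach 90%, while the NCD lines start at 27.4% and 26.9% and need 6; at the dotted line 84.8 and 83.8 segments are expected in HFD and 30.0 and 35.0 in NCD.

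The 2 libraries of a diet had nearly the same segment use. The overlap of segment shares (the sum of the smaller share of each segment) was 96.4% between the HFD libraries and 96.8% between the NCD libraries, against 42.0% to 42.9% for the 4 pairs across diets. In HFD, 82 segments were counted in both libraries, and the 9 and 6 counted in a single library had at most 15 and 22 counts. In NCD, 24 segments were counted in both libraries, and the 6 and 11 counted in a single library had at most 9 and 16 counts. The chi-square per degree of freedom between the libraries of a diet was 8.21 over 79 segments in HFD and 4.57 over 21 segments in NCD, and 405 to 477 across diets. It takes each count as independent, and since low counts gather at multiples of 4 it overstates the difference. Over all genes it was 22.1 in HFD and 36.4 in NCD. The files of a diet were not identical and were kept as 2 libraries, as labelled.

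Shares of segment counts were smaller in HFD for Vκ3, Vκ1, Vκ5 and Vκ14 and larger for Vκ4, Vκ6, Vκ10, Vκ12 and Vκ17. Vκ3 held 46.0% and 45.1% of segment counts in HFD and 60.2% and 59.3% in NCD. Vκ1 held 8.79% and 9.46% in HFD and 13.9% and 13.9% in NCD, Vκ5 3.33% and 3.58% in HFD and 6.78% and 7.48% in NCD. Vκ14 was closer, with 10.1% and 10.1% in HFD and 11.7% and 12.6% in NCD. The mouse Vκ4 family, the largest by number of functional segments, held 12.1% and 12.5% in HFD and 3.09% and 2.87% in NCD. Vκ6 held 4.80% and 5.04% in HFD and 0.136% and 0.419% in NCD, and Vκ12 3.15% and 3.19% in HFD and 0% and 0.0256% in NCD. Vκ10 held 3.56% and 3.18% in HFD and 1.70% and 1.27% in NCD, and Vκ17 2.21% and 2.61% in HFD and 0.650% and 0.555% in NCD. None of the families named so far had overlapping shares in the 2 diets, a difference of shares that was described and not tested. Vκ9, Vκ15, Vκ16, Vκ7 and Vκ13 were counted in both HFD libraries and in neither NCD library, led by Vκ9 with 469 and 433 counts in HFD. Vκ11 rested on few counts, all of Igkv11-125, with 9 and 0 in HFD and 44 and 6 in NCD. Vκ18 and Vκ20 had no counts. The effective number of families was 6.70 and 6.70 in HFD and 3.77 and 3.79 in NCD, and 24.9 percentage points of the mean shares lay in different families in the 2 diets.

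**Figure D2:**
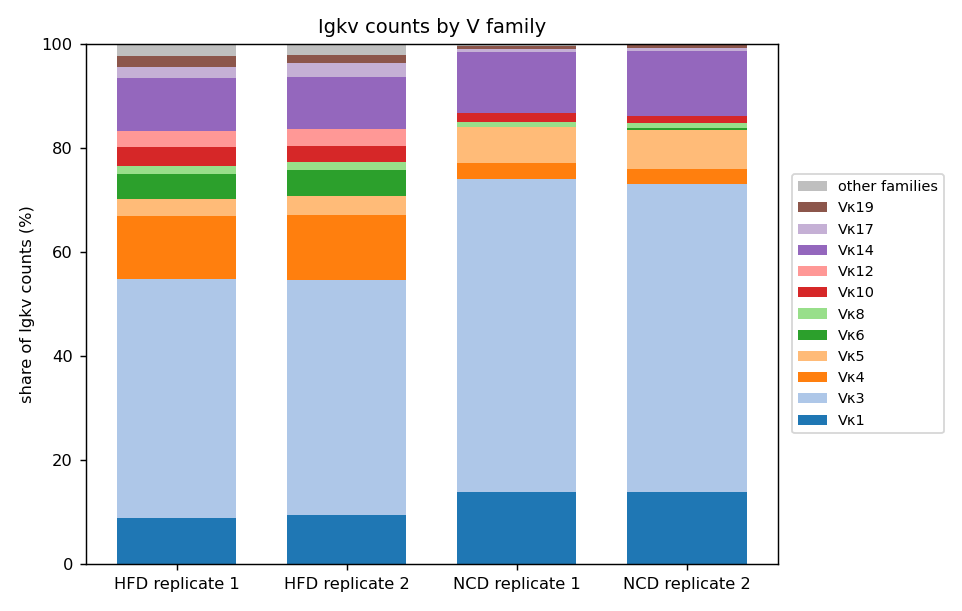
Stacked bars give the share of Igkv counts (percent, vertical axis) by V family in each of the 4 libraries, with families under 1% in both diets joined as other families. Vκ3 held 46.0% and 45.1% in HFD and 60.2% and 59.3% in NCD, and Vκ4 12.1% and 12.5% in HFD and 3.09% and 2.87% in NCD.

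Within Vκ3, the family next to the J segments, segments moved in opposite directions. Igkv3-2 had 32852 and 28815 counts in HFD, against 3416 and 3152 counts in NCD (520 ± 15.3 and 51.8 ± 1.61 CPM, SD, n = 2 each). It rose by 3.33 on the log2 scale (SE 0.0511, edgeR adjusted p = 1.36e-05), and its share of segment counts rose by 0.71 (log2, edgeR adjusted p = 4.53e-05). Igkv3-10, nearly level with Igkv3-2 in NCD, had 102 and 134 counts in HFD, against 3108 and 2950 counts in NCD. That is 2.01 ± 0.508 CPM in HFD and 47.8 ± 0.528 CPM in NCD (SD, n = 2 each), 23.8-fold lower in HFD (log2 change -4.58, SE 0.183, edgeR adjusted p = 9.40e-05). Igkv3-5 had 35 and 16 counts in HFD, against 788 and 662 counts in NCD, and fell by 4.74 on the log2 scale (SE 0.336, edgeR adjusted p = 0.000479). Igkv3-1 had 8 and 4 counts in HFD, below the floor, against 190 and 165 counts in NCD, and fell by 4.77 (log2, SE 0.423, edgeR adjusted p = 0.000981). No HFD value of these 4 segments overlapped an NCD value. Because Igkv3-10 and Igkv3-5 share long identical stretches, part of the Igkv3-5 counts could belong to Igkv3-10, and the split between them is uncertain.

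The remaining Vκ3 segments were low. Igkv3-4 had 328 and 259 counts in HFD and 0 and 2 in NCD, Igkv3-7 249 and 254 in HFD and 0 and 0 in NCD, and Igkv3-3 52 and 49 in HFD and 0 and 0 in NCD. Igkv3-9, a functional segment, had no counts in any library. Vκ3 without Igkv3-2 made 12.8 ± 0.366 plain CPM in HFD and 62.1 ± 1.78 in NCD (SD, n = 2 each). The family as a whole was therefore higher in HFD in plain CPM and lower as a share of segment counts, with Igkv3-2 making nearly all of it in HFD.

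**Figure D3:**
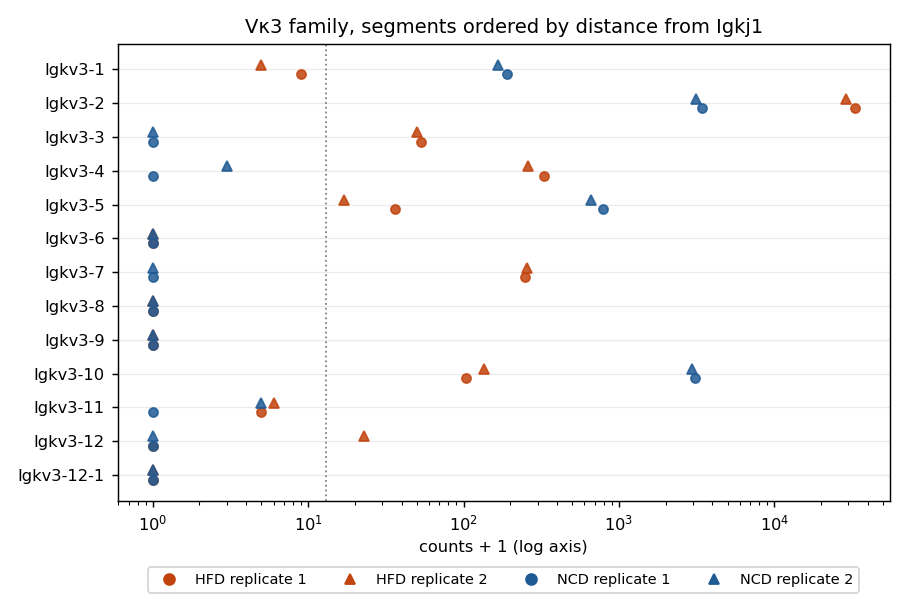
Counts + 1 (horizontal log axis) of the 13 Vκ3 segments, ordered by distance from Igkj1, with a point for each library (circles replicate 1, triangles replicate 2) and a dotted line at the floor of 12 counts. Igkv3-2 stands at 32852 and 28815 counts in HFD and 3416 and 3152 in NCD, while Igkv3-10, Igkv3-5 and Igkv3-1 are higher in NCD.

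Of the 160 segments, 97 had a count somewhere, 63 had none (12 functional segments and 51 pseudogenes), 74 passed the filter on low counts and 23 were counted but too low to test. Of the 74 tested, 67 were higher in HFD and 3 lower (edgeR adjusted p under 0.05), where 17.9% of the 21563 genes tested were higher and 14.5% lower. The 3 lower ones were Igkv3-10, Igkv3-5 and Igkv3-1, and the 4 not called were Igkv1-110, Igkv10-95, Igkv17-121 and Igkv2-109. Both HFD libraries lay above both NCD libraries for 68 of the 74 and below them for 4, against 34.5% and 33.2% of all genes tested. These counts carry no weight as a test of the group. Of the 74, 38 had 0 counts in NCD and passed the filter through HFD alone. Only 19 had at least 12 counts in both NCD libraries. The other tested segments, with few NCD counts, also owed their pass to their HFD counts.

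The 19 segments with at least 12 counts in both NCD libraries could rise or fall in HFD. They were chosen by their NCD counts alone, which favours falls and smaller shares in HFD. They held 72.1% and 71.2% of segment counts in HFD and 99.2% and 99.0% in NCD. Their median log2 change was 2.09, against 0.00 over all genes tested. Of these 19, 13 rose in HFD, by 2.32-fold to 149-fold, 3 fell, and Igkv1-110, Igkv10-95 and Igkv17-121 were not called. To ask which segments changed their part of the kappa pool, the edgeR fit was repeated with the summed Igkv counts of each library as its depth. By this share test, 57 of the 74 tested segments had a larger share in HFD and 9 a smaller one, where 1.87% of all genes tested were larger and 85.6% smaller on the same scale. A larger share in HFD was built in for the 38 segments with no NCD count. It was also favoured for the other tested segments outside the 19, which passed the filter through their HFD counts. Among the 19, the share was larger for 8 and smaller for 9.

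Among the segments that led in NCD, Igkv3-2 gained share, Igkv3-10 and Igkv3-5 fell, Igkv14-126 and Igkv5-39 rose with a smaller share, and Igkv1-110 was not called. Igkv14-126 had 3288 and 2949 counts in HFD, against 1431 and 1441 in NCD, and rose by 1.21 on the log2 scale (edgeR adjusted p = 0.00028). Its share fell to 4.49% and 4.50% in HFD, against 11.5% and 12.3% in NCD (share test, edgeR adjusted p = 1.48e-05). Igkv5-39, the leading Vκ5 segment, had 2143 and 2062 counts in HFD, against 840 and 876 in NCD (log2 change 1.39, edgeR adjusted p = 0.000403), and its log2 change of share was -1.23 (edgeR adjusted p = 0.000115). Igkv1-110 had 1699 and 1442 counts in HFD, against 1686 and 1562 in NCD. Its levels of 26.4 ± 1.40 CPM in HFD and 25.6 ± 0.722 CPM in NCD overlapped (SD, n = 2 each, log2 change 0.05, SE 0.0867, edgeR adjusted p = 0.741). Its share was 2.32% and 2.20% in HFD and 13.5% and 13.3% in NCD (log2 change of share -2.57, edgeR adjusted p = 1.16e-06). Igkv1-117, whose V exon is 96.8% identical to that of Igkv1-110, had 1133 and 1077 counts in HFD, against 48 and 45 in NCD, and was 25.4-fold higher (edgeR adjusted p = 6.05e-05). Together, Igkv3-2, Igkv3-10, Igkv1-110, Igkv14-126, Igkv5-39 and Igkv3-5, the 6 leading segments of NCD, held 54.8% and 54.1% of segment counts in HFD and 90.4% and 90.9% in NCD. Because the 6 were picked by their NCD counts, a larger summed share in NCD was favoured by the choice.

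Other segments were abundant in HFD and rare or uncounted in NCD. Igkv14-111, second in HFD, had 4069 and 3625 counts in HFD, against 24 and 31 in NCD. It was 149-fold higher (64.9 ± 1.20 CPM in HFD, 0.435 ± 0.0894 CPM in NCD, SD, n = 2 each, edgeR adjusted p = 2.34e-05), beside 2.32-fold for its relative Igkv14-126. Igkv4-55, the most counted Vκ4 segment in HFD, had 2551 and 2596 counts in HFD, against 73 and 44 in NCD, 47.3-fold higher (edgeR adjusted p = 9.87e-05). In NCD Igkv4-59 led Vκ4, with 482 and 384 counts in HFD and 177 and 199 in NCD. Igkv19-93, the sole member of Vκ19, had 1537 and 1063 counts in HFD, against 62 and 78 in NCD, 19.7-fold higher (edgeR adjusted p = 0.000215). Igkv8-24, the leading Vκ8 segment, was 11.0-fold higher, with 533 and 520 counts in HFD, against 47 and 55 in NCD (edgeR adjusted p = 0.000294). Igkv1-135 had 1782 and 1806 counts in HFD, against 0 and 16 in NCD, and Igkv6-20, the most counted Vκ6 segment in HFD, 1041 and 991 in HFD, against 6 and 22 in NCD. These low NCD counts leave the size of both changes uncertain.

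Among segments with no NCD count, bounds were taken against the floor of 12 counts in each NCD library. Igkv10-94 had 1614 and 1406 counts in HFD and was at least 134-fold higher, the largest of the 37 bounds. Igkv4-68 had 1479 and 1342 counts in HFD, Igkv12-44 1408 and 1279, Igkv1-99 1100 and 1284, and Igkv4-79 1214 and 1106, and their bounds ran from at least 103-fold to at least 126-fold higher. The 37 bounds had a median of 8.29-fold. All 5 named here had over 1000 counts in each HFD library.

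Close relatives differed in their values in 2 further families. Igkv10-95 had 48 and 55 counts in HFD, against 120 and 95 in NCD (log2 change -0.96, SE 0.331, edgeR adjusted p = 0.0816), beside Igkv10-94 with over 1000 counts in each HFD library and none in NCD. The share of Igkv10-95 was smaller in HFD (log2 change of share -3.56, edgeR adjusted p = 0.000102). Igkv17-127, the most counted Vκ17 segment in HFD, had 1562 and 1615 counts in HFD, against 4 and 0 in NCD, while Igkv17-121, which led the family in NCD, had 58 and 94 counts in HFD, against 77 and 65 in NCD (edgeR adjusted p = 0.740). The difference between the changes of 2 relatives was not itself tested. Igkv17-121 was chosen for the text after its values were seen.

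**Figure D4:**
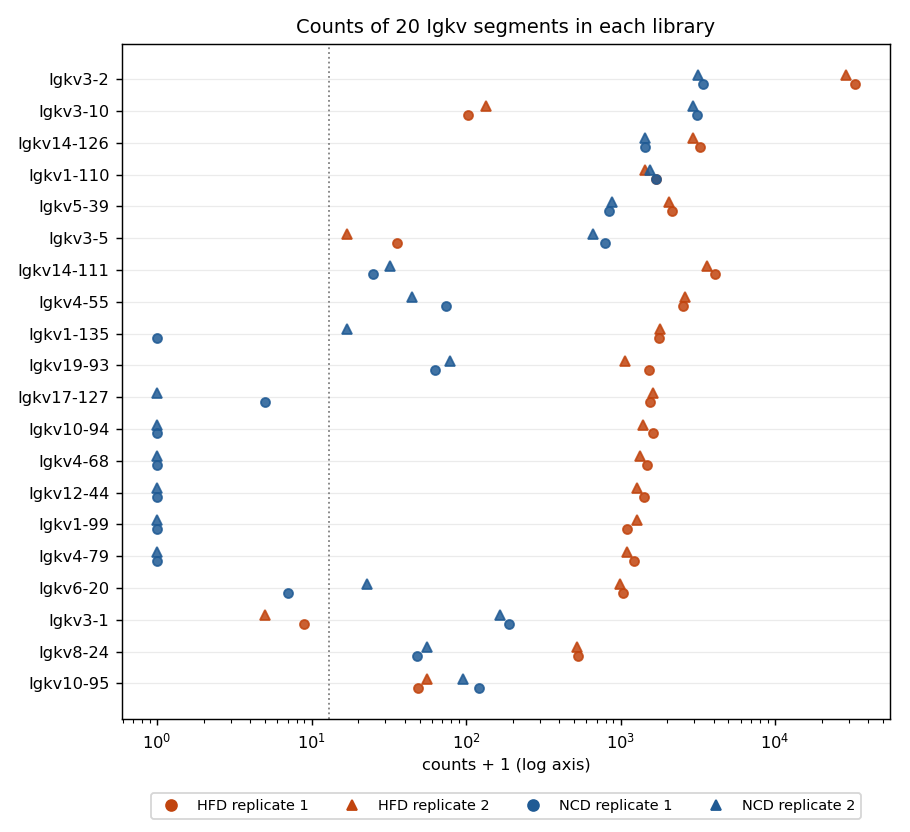
Counts + 1 (horizontal log axis) of 20 named Igkv segments, with a point for each library (circles replicate 1, triangles replicate 2) and a dotted line at the floor of 12 counts. Igkv10-94, Igkv4-68, Igkv12-44, Igkv1-99 and Igkv4-79 had over 1000 counts in each HFD library and none in NCD, and Igkv3-10, Igkv3-5 and Igkv3-1 lay higher in NCD.

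The gain in kappa V counts was spread over several groups of segments. Of the 978 plain CPM by which HFD exceeded NCD, Igkv3-2 made 468 (47.8%). The 37 segments absent in NCD made 196 (20.1%), the 15 other segments at the floor in NCD 240 (24.5%) and the 104 remaining segments 133 (13.6%). The 104 include the 63 segments with no count in any library. Igkv3-10, Igkv3-5 and Igkv3-1 together took away 59.5 (2.53 plain CPM in HFD, 62.1 in NCD). These segments and the 37 were grouped by the direction of their values, so the sign of their parts was built in. Setting the lower segments apart also favoured a gain in the 15. The 104 were below the floor in at least 1 NCD library, which favoured a gain there too. Without Igkv3-2 all segments summed to 649 plain CPM in HFD and 139 in NCD, a 4.67-fold difference. Per kilobase of exon, the scale on which segments can be compared with each other, Igkv3-2 led in both diets with a mean of 1374 CPM per kb in HFD and 137 in NCD. In HFD it stood well apart from the next, Igkv14-111 at 176, while in NCD Igkv3-10 followed closely at 131 and Igkv1-110 at 63.9.

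Along the locus, the HFD libraries used segments in the middle that were rarely counted in NCD. Segments 1000 to 2000 kb from Igkj1 held 15.6% and 15.3% of counts in HFD and 3.59% and 3.54% in NCD, with 32 and 27 of 57 segments used in HFD and 6 and 9 in NCD. Those 250 to 1000 kb away held 12.4% and 12.7% in HFD and 7.83% and 8.85% in NCD. The far end, beyond 2000 kb, held 26.0% and 26.9% in HFD and 28.4% and 28.4% in NCD, from 25 and 27 segments in HFD and 11 and 10 in NCD. The nearest 250 kb hold the 13 Vκ3 segments and no others. The stretch from 1000 to 2000 kb holds all 33 Vκ4 segments. Vκ4 had 12.1% and 12.5% of segment counts in HFD and 3.09% and 2.87% in NCD, so position and family overlap there. Kappa V segments lie in both orientations, and joining to a J segment deletes the DNA between when the orientation is the same and inverts it when it is opposite. Among functional segments 38 have the orientation of Igkj1 and 62 the opposite one. Segments in the same orientation held 69.1% and 69.6% of counts in HFD and 87.9% and 87.3% in NCD. Without Igkv3-2 this was 43.8% and 45.7% in HFD and 83.4% and 82.6% in NCD.

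**Figure D5:**
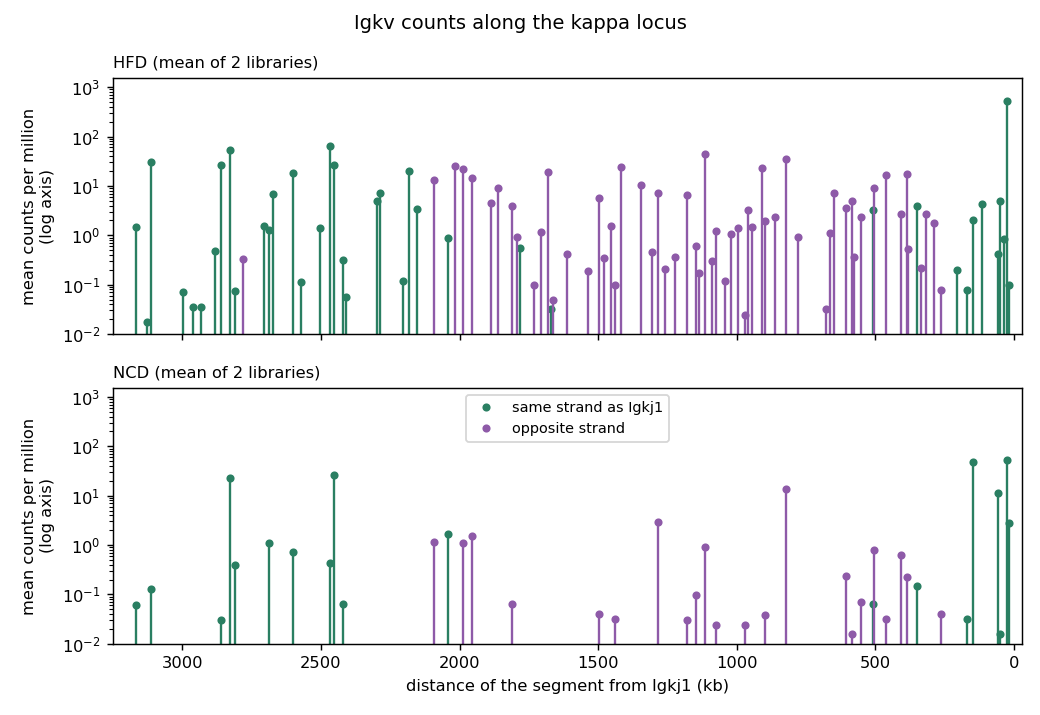
Mean plain CPM of each Igkv segment (log scale) against its distance from Igkj1 in kb, with HFD above and NCD below, coloured by strand relative to Igkj1. Segments 1000 to 2000 kb away held 15.6% and 15.3% of counts in HFD and 3.59% and 3.54% in NCD.

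Pseudogenes added little. They had 58 and 74 counts in HFD and 0 and 7 in NCD, led by Igkv4-77 with 14 and 35 counts in HFD and 0 and 0 in NCD. The 12 functional segments with no count in any library were Igkv1-131, Igkv9-123, Igkv20-101-2, Igkv4-92, Igkv4-90, Igkv4-62, Igkv5-37, Igkv18-36, Igkv1-35, Igkv8-26, Igkv8-18 and Igkv3-9. A count of 0 was taken to mean at most the floor of 12 counts in a library, which covers counting error only. Reads that may have been lost because they map to several segments are not covered.

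Genes that act on the kappa locus were described as lists chosen with earlier results of these data known. The counts of these lists stand beside 17.9% higher and 14.5% lower among all genes tested. Of the 16 tested transcription factors that bind kappa promoters or enhancers, 14 passed the test and all 14 rose (edgeR, median log2 change 1.24). Pou2af1, the B cell coactivator of octamer-binding factors, averaged 81.2 ± 1.798 CPM in HFD and 20.02 ± 0.509 CPM in NCD (SD, n = 2 each, edgeR adjusted p = 6.14e-05). Spib, an Ets factor that acts with Irf4 at the kappa 3′ enhancer, averaged 22.1 ± 0.991 CPM in HFD and 3.22 ± 0.407 CPM in NCD (edgeR adjusted p = 0.000209). Pou2f1 and Rela were not called. Of 9 tested genes of the rearrangement machinery 2 passed the test and fell, a share near that of all genes. They were Xrcc5 and Xrcc6, the Ku subunits that hold broken DNA ends. Xrcc5 averaged 48.0 ± 0.0333 CPM in HFD and 70.4 ± 1.35 CPM in NCD, and Xrcc6 46.1 ± 1.70 CPM in HFD and 78.5 ± 2.11 CPM in NCD (SD, n = 2 each, edgeR adjusted p = 0.00187 and 0.000809). Rag1 and Rag2, the recombinase genes, had 0 counts in all 4 libraries. Of the surrogate light chain genes, which precede kappa in developing B cells, Vpreb2 and Igll1 also had 0 counts throughout, and Vpreb1 had 21 and 0 in HFD and 4 and 0 in NCD. Among plasma cell markers 5 of 8 tested rose and 1, Derl3, fell. Jchain, which links antibody polymers, averaged 236 ± 6.42 CPM in HFD and 29.2 ± 0.687 CPM in NCD (SD, n = 2 each, edgeR adjusted p = 1.93e-05). Of the germinal centre markers 2 of 4 tested rose, and of 7 early B cell markers only Vpreb3, with 57 and 38 counts in HFD and 43 and 17 in NCD, was high enough to test and was not called. The J segments themselves had few counts, at most 46 in a library (Igkj5, 46 and 39 in HFD, 13 and 13 in NCD).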

How the data were processed

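Total RNA was sequenced with a stranded kit, per the labels' protocols. The submitters' processing notes name build GRCm38, HISAT, featureCounts 1.5.0 and DESeq 1.8.3. The authors deposited raw counts per Ensembl gene for each library. The sources used here give no strand or multi-mapping setting. Low counts gather at multiples of 4 (up to 40 counts, such values were 1.64 to 1.74 times as frequent as the neighbouring values over all genes, and 2.18 to 4 times over Igkv segments), so the floor for presence was set at 12 counts, 3 steps of 4. The floor covers counting error only.

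Symbols, gene types and V exons came from the GRCm38 annotation, and 55154 of 55421 identifiers had a symbol. The members and gene lists were chosen with earlier results of these data known. The main test was edgeR 4.0.16 (R 4.3.3), a quasi-likelihood test over all 21563 genes that passed filterByExpr (minimum count 10) with TMM scaling, Benjamini-Hochberg adjustment over all of them, a threshold of 0.05 and no replicate block. CPM values of single genes and segments use TMM-scaled depths, whereas plain CPM values use the library totals. The summed CPM of marker lists and the CPM per kb also use the library totals. The share test used the same counts with the summed Igkv counts as depth. It sets a zero at the change of the kappa pool, so most other genes fall below it. Number of segments used at a common depth was computed analytically. The code was tested on simulated data. For genes above 1 CPM, the main test found 4% of 1.5-fold, 40% of 2-fold and 100% of 4-fold changes. A segment that was not called may therefore still differ. Segments named are the 10 with the largest mean share, the 5 largest rises and falls with a mean of at least 1 CPM, all called lower, the 5 largest gains and losses of share, and the segment with the most counts by mean share in each family with at least 1 percent of counts. Those named outside this rule were chosen after their values were seen, among them all counts quoted for remaining Vκ3 segments and the not-called Igkv2-109. Alternatives were DESeq2 1.42.0, limma-voom 3.58.1, other filters, counts divided by 4, a replicate block and leaving out each library.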

Additional observations from a re-analysis of the deposited data

How the results depend on the processing

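The 3 segments lower in HFD were called in each alternative run that kept all libraries (DESeq2, limma-voom, no filter, a minimum count of 40, counts divided by 4 and the replicate block). Their log2 changes stayed negative on leaving out each library. Of 74 tested, segments higher in HFD numbered 67, and 68 by DESeq2, 67 by limma-voom and 57 with the replicate block, which left 3 lower. The stricter filter gave 56 of 62. The replicate numbers showed no pairing (correlation of deviations -0.0327). Under the block 48 segments had a larger share and 9 a smaller one. Leaving out each library in turn gave a log2 ratio of the Igkv part of all counts of 2.60 to 2.63. The difference in segments used was then 54.5 to 59.5, in evenness -0.0121 to 0.0153, and in family use 24.7 to 25.0 percentage points. Without pseudogenes the difference in segments used was 51. Evenness over all annotated segments differed by 0.120. Leaving out Igkv3-2 gave a difference in evenness of 0.207 and, in alternatives chosen after seeing the data, a log2 ratio of 2.22 (2.61 with it) and 49.2 points of family use. Of 20 named segments, Igkv10-95 was called lower by DESeq2 (log2 change -0.95, adjusted p = 0.0307), and the log2 change of Igkv1-110 ran between -0.0017 without HFD replicate 1 and 0.0942 without HFD replicate 2 (edgeR adjusted p = 0.995 in the first case). With 2 libraries a diet and segments of up to 99.0% identity, depth and shared reads limit what can be said of low segments.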

Other observations

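The lambda light chain, the alternative to kappa that mice use in a small part of their B cells, was also higher in HFD. All 7 tested genes of its list rose (edgeR adjusted p under 0.05, median log2 change 2.41). Among all genes tested, 17.9% were higher and 14.5% lower. Summed Iglv counts made 39.6 and 41.2 plain CPM in HFD and 7.21 and 7.45 plain CPM in NCD. The ratio of Igkc to the summed lambda constant genes was 24.0 and 24.0 in HFD and 18.1 and 16.4 in NCD, so Igkc gained more than this sum. Single lambda genes went both ways. Iglc1 (log2 change 2.82), Iglv2 (3.30) and Iglv3 (3.31) rose more than Igkc (2.67), while Iglc2, Iglc3, Iglv1 and Iglj2 rose less. For V segments the ratio of kappa to lambda was 29.9 and 28.0 in HFD and 26.8 and 25.3 in NCD. Iglv1 held 75.0% and 74.4% of lambda V counts in HFD and 86.2% and 85.5% in NCD, without overlap.

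Heavy chain V segments had 1006 and 1023 plain CPM in HFD and 142 and 143 in NCD. Kappa V counts for each heavy chain V count were 1.18 and 1.13 in HFD and 1.36 and 1.32 in NCD. Dntt, which adds bases at V-D-J joints, had 44 and 8 counts in HFD and 0 and 0 in NCD, and was too low to test.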
